A study of Mus musculus with 6 samples.

Results

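Cxcr5, Ccr7, Ccr6, Cxcr4 and Gpr183 encode 5 G protein-coupled receptors that steer lymphocytes to their places in a lymph node. Every probe set whose annotation names 1 of these genes and no other was taken, which gave 6 of the 45101 probe sets on the array, 1 for each gene and 2 for Gpr183. After 1 probe set was kept per gene, the 5 genes stood among 18193. They were measured in memory phenotype CD4+ T cells, 3 arrays from the spinal cord and 3 from the draining inguinal lymph nodes. All 6 samples came from female C57BL/6 mice of 8 to 10 weeks in the acute clinical phase of experimental autoimmune encephalomyelitis (EAE), a disease of the central nervous system induced here with the peptide MOG35-55 of myelin oligodendrocyte glycoprotein. Both tissues thus came from diseased mice, and the lymph node is a reference of another place and not of health. The labels do not say how many mice stand behind an array or whether arrays share mice, so that a p-value reflects how these samples varied, part of which may be technical. The comparison asks how receptor expression differs between CD4+ T cells in the target organ and those in the lymph node near the immunisation site.

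Each receptor reads a local cue. CXCR5 draws cells into B cell follicles toward CXCL13, and CCR7 brings them into the node and its T cell zone toward CCL19 and CCL21. CCR6 responds to CCL20, a chemokine of epithelia and of the choroid plexus, and marks interleukin-17-producing helper cells and their relatives. CXCR4 binds CXCL12 and retains cells in bone marrow and in the dark zone of germinal centres. GPR183, also called EBI2, senses the oxysterol 7-alpha,25-dihydroxycholesterol and keeps activated cells at the edge of the follicle.

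RefSeq promoter windows were at hand for Ccr6, Cxcr4 and Gpr183. The 250 bases before the start site are shown for Ccr6 and Cxcr4, because these genes had changes of opposite sign between the tissues. Capitals mark matches to 4 motifs searched on both strands and chosen with the sequences in view: the TATA box TATAAA, the GC box GGGCGG, the octamer ATTTGCAT and the forkhead motif GTAAACA. The Ccr6 window is the first of 2 listed for that gene and lies at chr17:8235793-8236042 on the plus strand of GRCm38.p6. The Cxcr4 window lies at chr1:128592300-128592549 on the minus strand of the same build.
Ccr6: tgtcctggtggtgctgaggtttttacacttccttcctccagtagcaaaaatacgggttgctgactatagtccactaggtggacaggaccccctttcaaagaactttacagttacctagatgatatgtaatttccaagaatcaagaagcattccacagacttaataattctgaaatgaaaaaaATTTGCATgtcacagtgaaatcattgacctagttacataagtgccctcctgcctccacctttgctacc
Cxcr4: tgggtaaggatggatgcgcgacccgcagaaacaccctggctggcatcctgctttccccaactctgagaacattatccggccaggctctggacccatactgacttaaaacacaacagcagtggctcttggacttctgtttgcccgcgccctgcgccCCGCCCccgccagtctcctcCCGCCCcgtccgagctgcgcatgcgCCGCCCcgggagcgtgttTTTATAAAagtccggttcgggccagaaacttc
The Ccr6 window held 1 octamer, 68 to 61 bases before the start, and none of the other 3 motifs. The Cxcr4 window held a TATA box 30 to 25 bases before the start, with an overlapping match on the other strand, and 3 GC boxes. The GC boxes were all on the other strand, at 95 to 90, 75 to 70 and 50 to 45 bases before the start. The second Ccr6 window and the Gpr183 window held none of the 4 motifs. Of 32851 mouse windows of the same length, 12.4% held a TATA box, 32.7% a GC box, 1.6% the octamer and 3.17% the forkhead motif. These matches describe letters only and were not tied to any measurement here.

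Cxcr5, Ccr7 and Ccr6 were lower in the spinal cord samples, by 48.0-fold, 7.55-fold and 3.72-fold, while Cxcr4 ran 2.72-fold the other way and Gpr183 had no clear direction. A gene was called where limma's p, adjusted by Benjamini-Hochberg over all 18193 genes, was below 0.05. By that rule 3 of the 5 genes were called lower, 0 higher and 2 were not called, against a background of 1.41% of all genes called lower and 1.13% called higher. With the number in the array titles as a block, Cxcr4 was also called, higher in spinal cord, and the background in that fit was 7.45% called lower and 3.67% called higher. The spinal cord arrays lay below all lymph node arrays for 3 of the 5 genes, and for 9.68% of all genes. The 5 genes were chosen with earlier results of these data known, so these shares describe the set and do not test it. The median log2 change of the 5 genes was -1.89, and that of all genes was 0.00. In bulk samples fewer cells carrying a receptor and less RNA per cell cannot be told apart. All changes are spinal cord over lymph node on the log2 scale, with the standard error (SE).

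**Figure D1:**
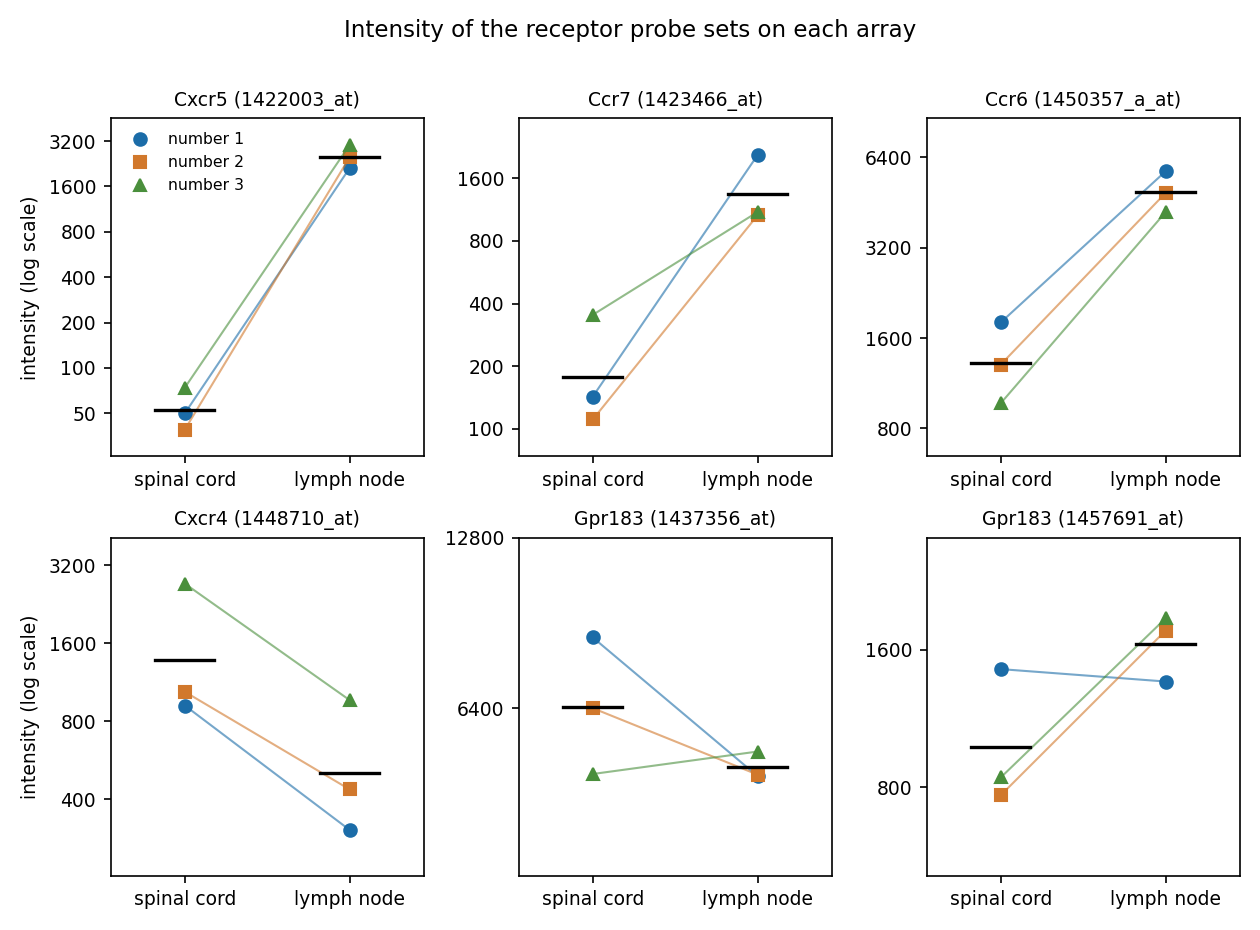
Intensity, on a log scale, of the 6 receptor probe sets on the 3 spinal cord arrays (left in each panel) and the 3 lymph node arrays (right). Lines join arrays with the same number in their titles and black bars are geometric means. The tissues are apart for Cxcr5, Ccr7 and Ccr6, and every line falls to the right for Cxcr4. The means of the Gpr183 probe sets go in opposite directions, but their lines do so only for number 2.

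Cxcr5, the follicle-homing receptor, read 50, 39 and 74 on spinal cord arrays 1, 2 and 3, against 2118, 2497 and 3016 on lymph node arrays 1, 2 and 3. The highest spinal cord array was far below the lowest lymph node array. The spinal cord readings lay around the array medians of 68 to 71, and no detection calls were used here, so they may be near background and the fold depends on them. The log2 change was -5.58 ± 0.27 SE (limma adjusted p = 0.00171), from means of 5.71 ± 0.47 in spinal cord, against 11.30 ± 0.26 in lymph node (SD, n = 3 each). No gene of the 18193 had a more negative change. The ratio between arrays of the same number was 42.4-fold, 64.0-fold and 40.8-fold lower in spinal cord. Without any single array the log2 change lay between -5.83 and -5.37, and the gene was called in all 6 such fits (highest adjusted p = 0.0227). The exact permutation test gave p = 0.1, the smallest two-sided value that 3 against 3 arrays allow, for Cxcr5 and likewise for Ccr7 and Ccr6.

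B cells of the lymph node carry CXCR5, CCR7 and CCR6 as well, so B cell markers were read on the same arrays. Of 14 measured markers 12 stayed below an intensity of 100 on every array. The antigen receptor gene Cd79a read 54, 45 and 36 in spinal cord, against 63, 43 and 40 in lymph node, and Ms4a1, which encodes CD20, read 39, 33 and 28 in spinal cord, against 43, 38 and 27 in lymph node. These 2 defining markers thus stayed below the array medians of 68 to 71 in both tissues. The exceptions were Cd22 and Cd79b. Cd22, an inhibitory lectin gene of B cells, read 108, 98 and 116 in spinal cord, against 620, 679 and 750 in lymph node and was called lower (log2 change -2.67 ± 0.13 SE, limma adjusted p = 0.00171). Cd79b, which encodes the partner chain of CD79A, read 43, 29 and 39 in spinal cord, against 117, 79 and 57 in lymph node, without overlap. Its change was -1.15 ± 0.29 SE, and it was called with the block only (limma adjusted p = 0.134; 0.0267 with the block). The part of B cells in the receptor readings was not tested. The summed marker intensity with Cd22 was 654 to 688 in spinal cord, against 1222 to 1311 in lymph node. Without Cd22 it was 550 to 580 in spinal cord, against 543 to 687 in lymph node. Cd22, the only marker called with tissue alone, was left out after its values were seen. Most of the markers that remain were dim, so the second sum cannot show that B cell content was equal.

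Ccr7, the receptor for entry into the node, read 143, 111 and 353 on spinal cord arrays 1, 2 and 3 and 2066, 1062 and 1101 on the lymph node arrays. The tissues did not overlap, but spinal cord array 3 stood 3.18-fold above spinal cord array 2. The log2 change was -2.92 ± 0.49 SE (limma adjusted p = 0.0439), from 7.47 ± 0.88 in spinal cord, against 10.39 ± 0.54 in lymph node (SD, n = 3 each), and 28 genes had a more negative one. Between arrays of the same number Ccr7 was 14.4-fold, 9.57-fold and 3.12-fold lower in spinal cord, so the size of the difference varied more than for Cxcr5. The call was narrow. It held without spinal cord array 3 (-3.41, adjusted p = 0.0324) and was lost without spinal cord array 1 (-2.76, 0.126), spinal cord array 2 (-2.58, 0.143), lymph node array 1 (-2.61, 0.0993), array 2 of lymph node (-3.09, 0.143) or array 3 of lymph node (-3.06, 0.113).

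Ccr6, the CCL20 receptor, read 1803, 1306 and 971 on spinal cord arrays 1, 2 and 3, against 5741, 4864 and 4199 on the lymph node arrays. The tissues did not overlap, and the array of number 1 was the highest and that of number 3 the lowest in each. The log2 change was -1.89 ± 0.25 SE (limma adjusted p = 0.0219), from 10.36 ± 0.45 in spinal cord, against 12.26 ± 0.23 in lymph node (SD, n = 3 each). The 3 ratios between arrays of the same number were close to each other, at 3.18-fold, 3.72-fold and 4.32-fold lower in spinal cord. Unlike the Cxcr5 reading, that of Ccr6 in spinal cord stayed well above the array medians of 68 to 71. Leaving out spinal cord array 2 (-1.89, adjusted p = 0.102) ended the call, as did leaving out lymph node array 1 (-1.78, 0.0677), 2 (-1.90, 0.111) or 3 (adjusted p = 0.0547).

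**Figure D2:**
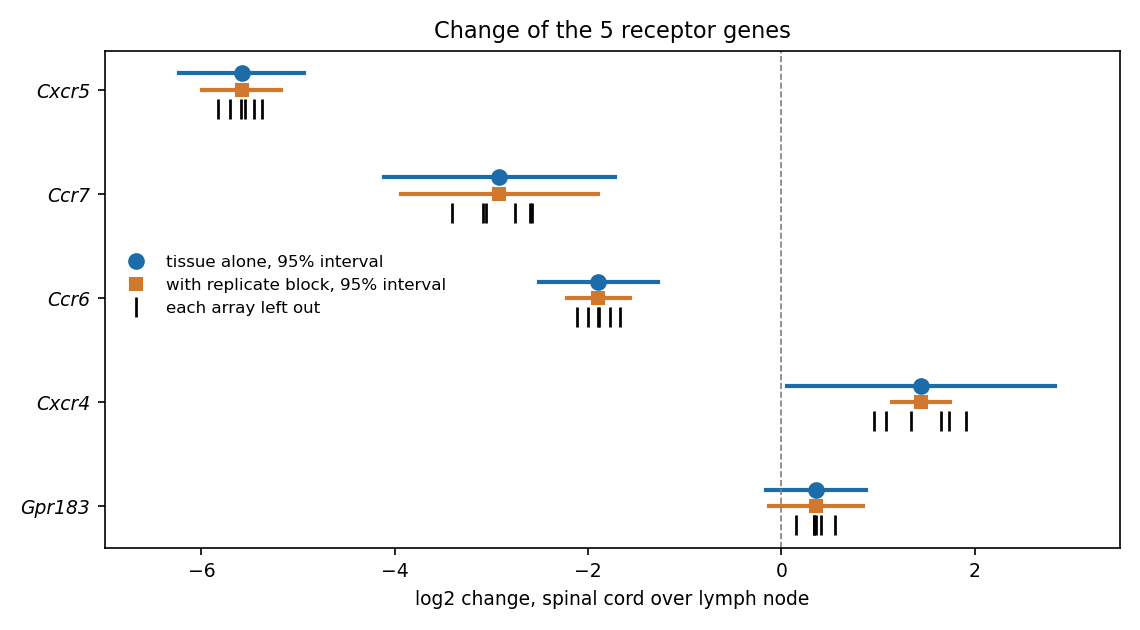
Log2 change of the 5 receptor genes, spinal cord over lymph node, with 95% intervals from limma with tissue alone (circles) and with the array number as a block (squares); ticks are the changes with each of the 6 arrays left out. The Cxcr4 interval spans 0.06 to 2.83 with tissue alone and 1.14 to 1.75 with the block.

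Cxcr4, the CXCL12 receptor, read 920, 1039 and 2712 on spinal cord arrays 1, 2 and 3, and 305, 437 and 965 on the lymph node arrays. The tissues overlapped, because lymph node array 3 lay above spinal cord array 1. The array of number 3 was the highest in each tissue, and the highest array stood 2.95-fold above the lowest in spinal cord and 3.16-fold in lymph node. The log2 change was 1.44 ± 0.57 SE, from 10.42 ± 0.85 in spinal cord, against 8.98 ± 0.85 in lymph node (SD, n = 3 each), and it was not called (limma adjusted p = 0.33, exact permutation p = 0.2). Within arrays of the same number Cxcr4 was 3.02-fold, 2.38-fold and 2.81-fold higher in spinal cord. With the number as a block the SE was 0.12 and the gene was called (limma adjusted p = 0.00317), also over all probe sets (0.00792, where 6.2% of probe sets were called). In the same fit without both arrays of number 1, 2 or 3 the change was 1.37, 1.54 or 1.42, and it was not called (adjusted p = 0.0518, 0.142 and 0.142).

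The change of Cxcr4 was also set against that of the other receptors on the same array, which removes any scaling of whole arrays. The within-array log2 difference between Cxcr4 and Cxcr5 was 7.03 higher in spinal cord than in lymph node. It was 4.36 higher for Cxcr4 against Ccr7 and 3.34 higher against Ccr6. Cxcr5, Ccr7 and Ccr6 were themselves called lower, so each value combines the partner's fall with the change of Cxcr4. Such a value shows unequal change only and is no separate evidence that Cxcr4 rose. In these 3 cases the tissues did not overlap, and the exact permutation p was 0.1, the smallest possible, or 0.133 after adjustment over the 4 differences computed. Against Gpr183 the difference was 1.09 higher in spinal cord, the tissues overlapped and the exact permutation p was 0.3. Without spinal cord array 3 that last difference was 0.40. With arrays paired by number, the exact sign-flip p was 0.25 for each of the 4 differences, the smallest that 3 pairs allow.

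**Figure D3:**
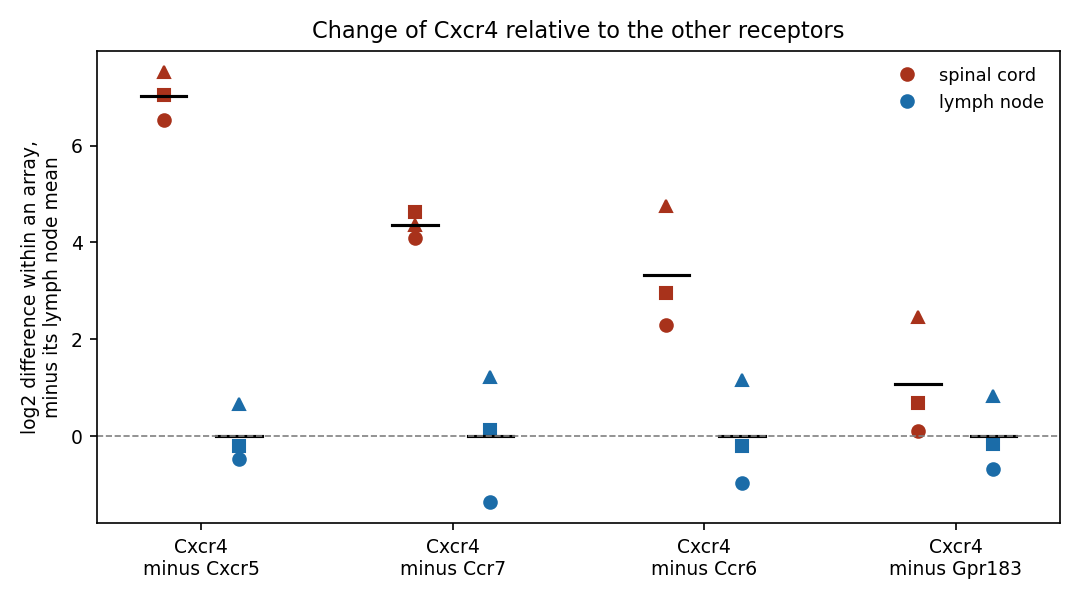
Log2 difference between Cxcr4 and each other receptor on 1 array, minus the lymph node mean of that difference, for spinal cord (left of each pair) and lymph node arrays (right); circles, squares and triangles are arrays 1, 2 and 3 and bars are means. Spinal cord arrays stand 6.52 to 7.51 above the lymph node mean for Cxcr5, and 0.10 to 2.46 above it for Gpr183.

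Gpr183, the oxysterol receptor, gave different answers with its 2 probe sets. The brighter, 1437356_at, read 8535, 6398 and 4893 on spinal cord arrays 1, 2 and 3 and 4850, 4880 and 5362 on the lymph node arrays. Spinal cord array 1 was the highest of the 6, spinal cord array 3 lay within the narrow lymph node range, and the log2 change was 0.36 ± 0.21 SE (95% interval -0.16 to 0.88, limma adjusted p = 0.549). Its sample means were 12.65 ± 0.40 in spinal cord, against 12.30 ± 0.08 in lymph node (SD, n = 3 each). The dimmer probe set, 1457691_at, read 1452, 769 and 841 in spinal cord, against 1364, 1763 and 1875 in lymph node, with spinal cord array 1 inside the lymph node range. Its log2 change was -0.75 ± 0.28 SE (95% interval -1.43 to -0.08), not called among 45037 probe sets (limma adjusted p = 0.361), of which 1.19% were called. The log2 difference between the probe sets was 1.11 higher in spinal cord, with 2.56, 3.06 and 2.54 on the spinal cord arrays, against 1.83, 1.47 and 1.52 on the lymph node arrays, without overlap (exact permutation p = 0.1, the smallest possible). The gene therefore has no single direction here.

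Most of the measured genes for the receptors' cues were dim in the sorted T cells; of 11 listed, 7 were measured, and the CCR7 ligand genes were not among them. Of these 7 genes for ligands and ligand enzymes 0 were called, with a median log2 change of 0.15, and 6 of the 7 stayed below an intensity of 100 on every array. Cxcl13, the CXCR5 ligand, read 73 to 85 in spinal cord, against 71 to 88 in lymph node. Ccl20, the CCR6 ligand, read 73 to 85 in spinal cord, against 60 to 67 in lymph node (log2 change 0.33 ± 0.12 SE, limma adjusted p = 0.26). Cxcl12, the CXCR4 ligand, read 46 to 54 in spinal cord, against 46 to 53 in lymph node. Cyp27a1, a sterol 27-hydroxylase gene, had a change of 0.29 ± 0.16 SE (adjusted p = 0.524).

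Downstream of the receptors, no G protein gene was called while 2 genes for their brakes were called higher. Rgs1 and Rgs16 encode proteins that speed GTP hydrolysis on G alpha subunits and so shorten chemokine signals. Rgs1 read 11757, 12369 and 7661 in spinal cord, against 1287, 1337 and 970 in lymph node, and its change was 3.13 ± 0.23 SE (limma adjusted p = 0.00533). Rgs16 read 3611, 4175 and 2791 in spinal cord, against 296, 340 and 519 in lymph node, a change of 3.22 ± 0.26 SE (adjusted p = 0.00654). Neither gene's tissues overlapped, both calls held without any single array, and 1 of 2 other Rgs16 probe sets was called. The other 13 of 15 measured genes of coupling and desensitisation, among them those for the inhibitory G protein chains, receptor kinases and arrestins, were not called, and the list median was 0.16. Of these, Rgs2 read 8580, 8600 and 6261 in spinal cord, against 1550, 3039 and 984 in lymph node, without overlap. Its change was 2.21 ± 0.41 SE (limma adjusted p = 0.0576, and 0.00621 with the block). With the block 3 of the 15 were called higher and 0 lower, against 3.67% and 7.45% of all genes.

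Other receptors for entry, exit and scavenging went both ways, with 1 of 15 called higher and 1 lower and a median of 0.06. Ccr10, a skin-homing receptor gene, had a change of -1.49 ± 0.21 SE and was called lower (limma adjusted p = 0.0274), at 87, 79 and 112 in spinal cord, against 300, 282 and 201 in lymph node. Its call held only without lymph node array 3 among the 6 fits with an array left out (adjusted p up to 0.13). Ccr9, a gut-homing receptor gene, was called higher through 1 dim probe set at 78, 85 and 77 in spinal cord, against 33, 30 and 27 in lymph node. The other 4 Ccr9 probe sets were not called, and with the mean of its probe sets the change was 0.49 (adjusted p = 0.0534) in place of 1.42. S1pr1, the receptor for exit from the node, read 2071, 1921 and 1220 in spinal cord, against 3153, 1213 and 1399 in lymph node, a change of -0.05 ± 0.41 SE (adjusted p = 0.979). With the block 3 of these receptors were called higher and 2 lower, against 3.67% and 7.45% of all genes.

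Of 19 measured genes of the migration machinery 1 was called and the median was -0.17. Tiam1, an activator of the GTPase Rac, fell by 1.43 on the log2 scale (SE 0.14, limma adjusted p = 0.00946), at 1924, 1628 and 1414 in spinal cord, against 4556, 4236 and 4470 in lymph node. That call ended without spinal cord array 2 (-1.42, adjusted p = 0.0622) or lymph node array 2 (-1.46, 0.0531), and with the mean of its 3 probe sets, 2 of which were dim, the change was -0.45 (0.132). Rasa2, a Ras GTPase-activating protein gene, had a change of -0.68 ± 0.21 SE (adjusted p = 0.195).

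Among 18 measured transcription factors known to act on such receptor genes, 1 was called lower, 0 higher and the median was -0.50. Klf3, a repressor of the Kruppel-like family, read 818, 1369 and 1007 in spinal cord, against 3795, 8105 and 4730 in lymph node, and fell by 2.34 on the log2 scale (SE 0.33, limma adjusted p = 0.0263). None of its 6 other probe sets was called, with changes from -2.09 to 0.04. The call held only without lymph node array 1 among the 6 fits with an array left out (adjusted p up to 0.101). Foxp1, a forkhead factor of quiescent T cells, had a change of -1.04 ± 0.23 SE (adjusted p = 0.0867) and was called lower with the block (adjusted p = 0.00711). Klf2, which drives exit and homing receptor genes in T cells, read 5335, 2122 and 885 in spinal cord, against 9865, 5126 and 1368 in lymph node, a change of -0.93 ± 0.91 SE (adjusted p = 0.744; 0.0207 with the block). With the block 6 of the 18 were called lower and 3 higher, against 7.45% and 3.67% of all genes.

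**Figure D4:**
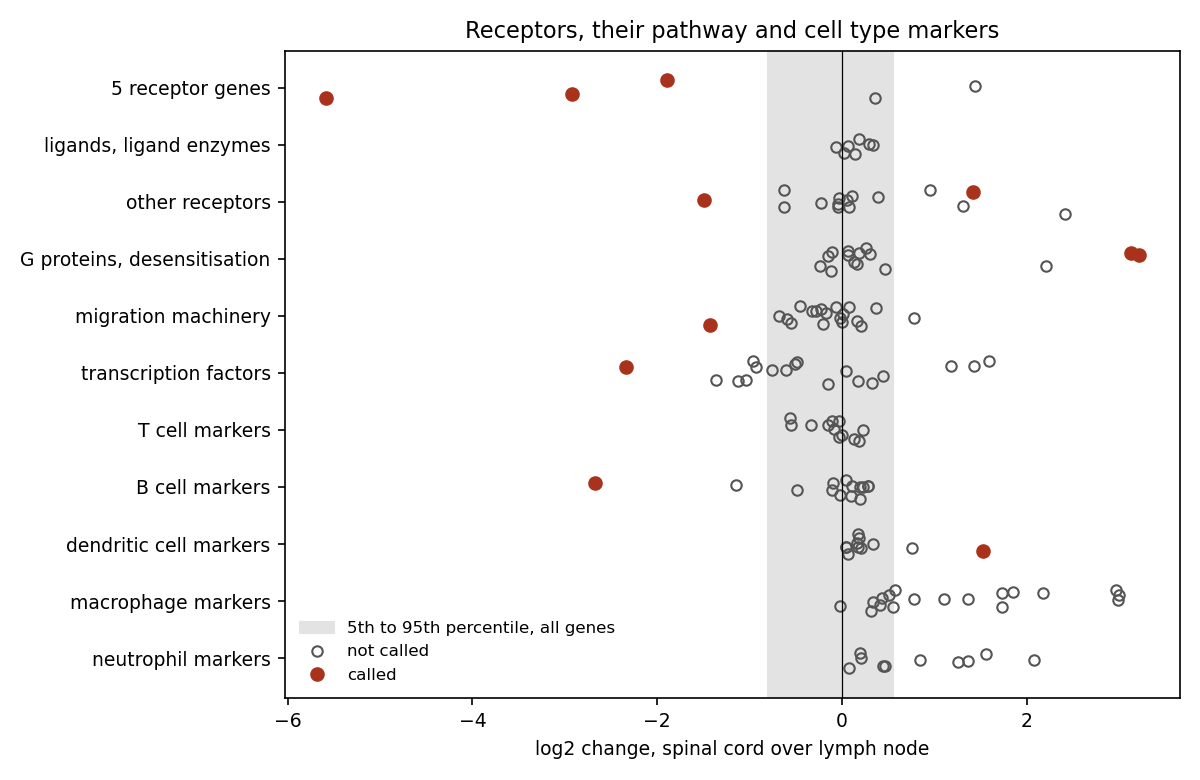
Log2 change, spinal cord over lymph node, of the 5 receptor genes, the pathway lists and cell type marker lists; each point is a gene, filled where called by limma with tissue alone. The grey band holds the changes between the 5th and 95th percentile of all genes, -0.80 to 0.56, and Cxcr5, Ccr7 and Ccr6 lie to its left.

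The genes with the most similar profiles were found by the root mean square difference between log2 values over the 6 arrays, each gene centred on its own mean. This likeness is a description that mostly follows the difference between the tissues. Nearest to Cxcr5 were the transcriptional coactivator gene Pou2af1 (0.39), Sostdc1 (0.50) and Ppic (0.64). Nearest to Ccr7 were Slamf6 (0.40), a signalling lymphocyte receptor gene, Plagl1 (0.41) and Cd83 (0.42). Ccr6 had closer neighbours in Klhl42 (0.15), the ion channel gene Trpm6 (0.16) and Mpp1 (0.19). Cxcr4 was nearest to Agpat4 (0.25), the signalling inhibitor gene Errfi1 (0.26) and the glutathione reductase gene Gsr (0.29), which like Cxcr4 were not called with tissue alone. Agpat4 read 1305, 1491 and 3023 in spinal cord, against 597, 603 and 1177 in lymph node, so that it shared the high values of number 3 with Cxcr4. The brighter Gpr183 probe set was nearest to Rnf225 (0.08), Meis1 (0.10) and Bmp4 (0.10), which were all dim, and a profile so flat has many neighbours.

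The T cell label fitted its markers: the 12 measured T cell genes summed to 60424 to 70916 in spinal cord, against 60591 to 81428 in lymph node, and 0 were called. Markers of macrophages, monocytes and microglia had larger sums in spinal cord, at 1624, 5989 and 3405 in spinal cord, against 925, 891 and 1111 in lymph node, with 0 of 18 called. With the block, the fit that called Cxcr4, 7 of the 18 were called higher and 0 lower, against 3.67% and 7.45% of all genes. The macrophage enzyme gene Lyz2 read 245, 1771 and 563 in spinal cord, against 78, 81 and 78 in lymph node (limma adjusted p = 0.0983; 0.0212 with the block). Myeloid cells can express Cxcr4 and Gpr183, and their part in those readings was not tested. Among the spinal cord arrays the macrophage sum was highest on array 2, as were most of the 18 markers, Lyz2 among them. C1qa (84, 177 and 286), C1qc and Trem2 were instead highest on array 3, and Mertk and Cd163 on array 1. Cxcr4 was highest on array 3 and the brighter Gpr183 probe set on array 1, and these orders were not tested against each other. Neutrophil markers summed to 575, 2307 and 849 in spinal cord, against 602, 436 and 461 in lymph node, with 0 of 10 called. Of 11 dendritic cell markers 1 was called higher, the integrin gene Itgax, and the sums were 1325 to 2063 in spinal cord, against 911 to 1227 in lymph node.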

How the data were processed

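The authors deposited values made with RMA, per the submitters' processing notes, as intensity on a linear scale in whole numbers from 9 to 39505; the RMA version and genome build are not given in the sources used here. Per the labels' protocols, RNA (1 ng) was amplified in 2 cycles, which can add variation between arrays. With no read depth on arrays, precision is limited by how many there are. No 2 arrays were copies of each other: in the closest pair 93.5% of probe sets had unequal values. All array columns were mapped by the labels.

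Log2 values were tested with limma 3.58.1 (lmFit, eBayes) in R 4.3.3, two-sided, with tissue as the only term, over the brightest probe set of each gene by mean; a second fit took all 45037 probe sets that are not controls. Names came from the platform annotation, in which 34945 probe sets name 1 gene, 932 several and 9160 none. Of those with 1 gene 34741 matched RefSeq of GRCm38.p6 by gene ID, and 0 symbols changed. The code was tested on simulated data. Python 3.11.15, numpy 2.4.6, pandas 2.3.3, scipy 1.17.1 and matplotlib 3.10.9 were used.

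Array titles carry a number from 1 to 3 within each tissue. An array's deviation from its tissue mean, correlated across genes with that of an array of the other tissue, gave 0.576, 0.509 and 0.777 for equal numbers and -0.569 to 0.00506 for unequal ones; genes are not independent. The numbers were therefore taken to pair the arrays, from the data and not from the labels. Alternatives were this block, leaving out single arrays, dropping dim genes, 2 further normalizations, a trended robust variance, other uses of probe sets and a floor of 25, the 20th percentile of intensity.

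The members and lists were chosen with earlier results of these data known. Of each pathway list the called genes were named, at most 4 by p, with the lowest p up to 2 in all where fewer were called, plus the measured ligands; for likeness the 3 nearest genes were named. S1pr1, Klf2, Rgs2 and the marker genes were named after their values were seen. The lists of plasma cells (0 of 7 called), lymph node stroma (0 of 11) and neural cells (0 of 11) were also read. In that of CD8 T and natural killer cells 2 of 7 were called higher, against 1.13% of all genes. These were Klrd1 and Klrk1, while Cd8a and Cd8b1 were not called. With the block 2 of the 7 were called higher and 1 lower, against 3.67% and 7.45% of all genes.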

Additional observations from a re-analysis of the deposited data

How the results depend on the processing

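Cxcr5, Ccr7, Ccr6 and Cxcr4 kept their direction under every alternative run. The replicate block called Cxcr4 (log2 change 1.44, limma adjusted p = 0.00317; 1.44 and 0.00792 over all probe sets) and Ccr7 over all probe sets (-2.92, 0.0282, against 0.0691 without the block), and changed no other member's call. In an alternative chosen after seeing the data, the block without both arrays of 1 number kept the direction of Cxcr4 but lost its call without number 1 (1.37, 0.0518), 2 (1.54, 0.142) or 3 (1.42, 0.142), and calls were also lost for Cxcr5 without number 2 (-5.38, 0.128) or 3 (-5.70, 0.0942), for Ccr7 without 1 (-2.45, 0.0917), 2 (-2.75, 0.241) or 3 (-3.56, 0.101), and for Ccr6 without 2 (-1.89, 0.153) or 3 (-1.78, 0.102); fewer arrays were fitted there. Ccr7 was not called after quantile normalization (-2.81, 0.0587), with the floor (-2.92, 0.123) or with all probe sets in the fit (-2.92, 0.0691). Ccr6 was not called with the floor (-1.89, 0.076). All readings of both genes lay above the floor of 25, and the fit of all probe sets used the same readings. There only the variance estimate and the adjustment of p, which draw on all features, differed. The cause under quantile normalization was not tested. Gpr183 reversed to -0.20 with the mean of its probe sets, whose mean changes have opposite signs. Cxcl12, at 0.028, turned to -0.016 under quantile normalization, and single arrays left out gave -0.026 to 0.096. Single arrays left out gave -3.41 to -2.58 for Ccr7, -2.12 to -1.67 for Ccr6 and 0.95 to 1.91 for Cxcr4. Of all genes 206 were called higher and 257 lower; 49 to 136 and 32 to 190 with 1 array left out, 668 and 1355 with the block, 77 and 84 with the floor, and 56 and 47 at an adjusted p below 0.01. What the signal limits is the fold of Cxcr5, whose spinal cord readings lay near the array medians.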
